A study of Mus musculus with 6 samples.

Results

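The pericentral Wnt target genes are 10 genes that β-catenin drives in the hepatocytes around the central vein: Glul, Oat, Slc1a2, Axin2, Lgr5, Tbx3, Rhbg, Rgn, Nkd1 and Lhpp. They were chosen by symbol, and all 10 were among the 15960 genes of the deposited table. Liver RNA gave 3 libraries of Cyp2e1-/- mice, called knockout here, and 3 of Cyp2e1+/+ mice, called wild type. The labels do not say how the samples were taken, so the libraries of a genotype may not be separate mice. Per the labels both genotypes were C57BL/6 and 22 weeks old, and per the series' design text both had been on a high-fat diet for 14 weeks. The sources used here do not give the making of the allele, the sex of the mice or whether they were littermates. With whole liver, fewer cells of a type and less RNA per cell cannot be told apart.

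In the liver lobule, endothelial cells at the central vein release Wnt ligands and R-spondins. In the hepatocytes next to them β-catenin is then spared from destruction and, with TCF/LEF factors, switches on a pericentral gene set. This zone makes glutamine from ammonia that periportal hepatocytes have let through, and it is also where CYP2E1, a cytochrome P450 that oxidizes ethanol and other small molecules, is made. The question for these genes was whether their expression in the zone that normally holds CYP2E1 is the same without it.

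Levels are in FPKM, which corrects fragment numbers for the length of the transcript and the size of the library. Differences are knockout minus wild type on log2(FPKM + 1), a scale that makes changes of weakly expressed genes look smaller. The words rose and fell are kept for genes with a limma p-value under 0.05 after Benjamini-Hochberg adjustment over all tested genes. A gene was tested when 3 or more of the 6 libraries reached 1 FPKM. The libraries summed to 562590 to 624264 FPKM, with 9628 to 9963 genes at 1 FPKM or more. Hepatocyte markers were abundant in all of them, with Alb between 24938 and 33779 FPKM. Replicate 1 of both genotypes stood apart from the other libraries and got the lowest quality weights in limma (0.368 for the knockout library and 0.291 for the wild type one; the other 4 had 1.10 to 2.86), so results are given with and without it. Cyp2e1 itself stood at 254, 247 and 271 FPKM in the knockout libraries and at 7427, 5942 and 6071 in the wild type libraries (log2 difference -4.64; limma, adjusted p = 6.68e-08).

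None of the 10 genes passed the threshold with all 6 libraries, while Cyp2e1, made in the same zone, was at 0.0397 of its wild type level. Of the 8 members that could be tested none rose and none fell, where 0.762% of 9968 tested genes were called (limma). At an unadjusted p under 0.05 (limma) there were 3 members of 8, Glul, Slc1a2 and Rgn, against 9.93% of all tested genes. Such a share was not particular to the members. In other lists described below it was 12 of 29 pericentral, 10 of 24 periportal, 3 of 5 midzonal and 3 of 16 glutamine and ammonia genes. It was 1 of 19 genes of β-catenin destruction and transcription, 0 of 8 receptor genes, 0 of 3 ligand genes and 0 of 3 inhibitor genes. The median difference over the 8 tested members was 0.099, and over all 10 members it was 0.057, beside -0.028 over all tested genes. The intervals were wide enough to hold moderate changes in either direction for several genes, so the result does not show that the genotypes are alike. With replicate 1 of both genotypes left out, a choice made with results of these data known, 2 of the 8 rose and 1 fell, where 11.9% of all tested genes were called, 6.92% rising and 4.95% falling (limma).

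**Figure D1:**
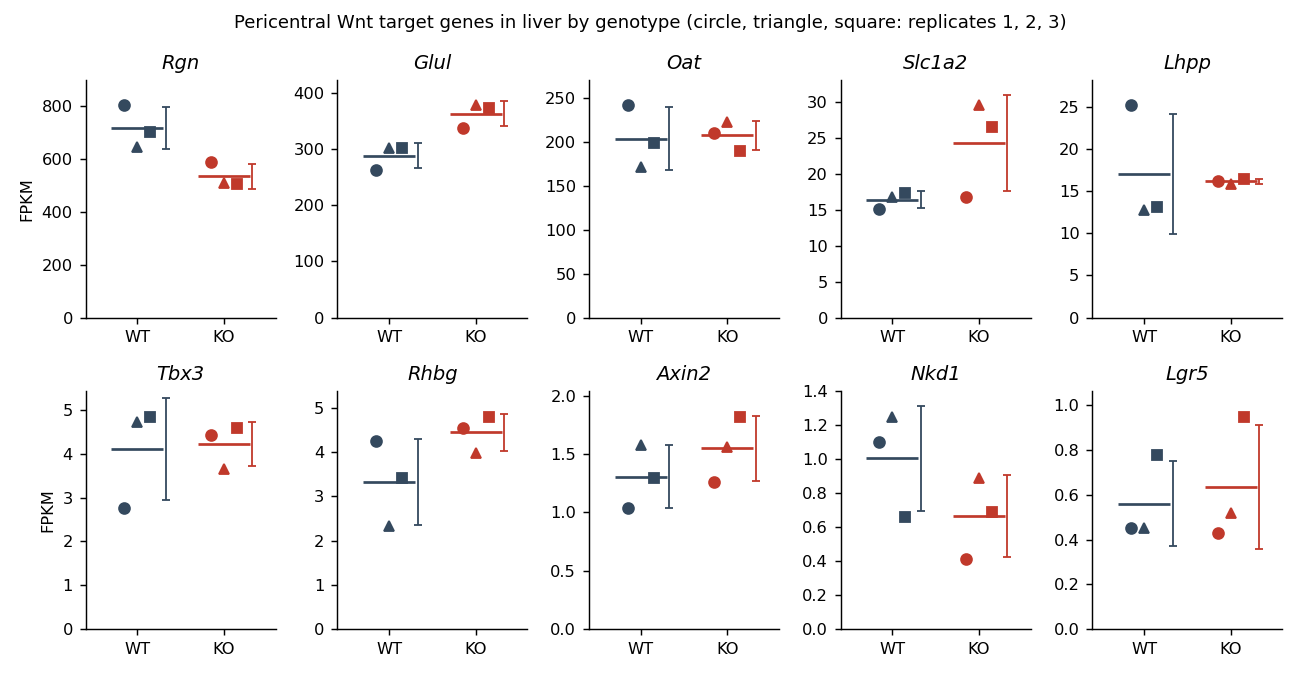
FPKM of each of the 10 genes in the 3 wild type (WT, dark) and 3 knockout (KO, red) liver libraries, each panel on its own linear axis from 0; horizontal lines are group means and error bars the SD (n = 3), and circles, triangles and squares are replicates 1, 2 and 3. The groups do not overlap for Rgn (506 to 589 FPKM in the knockout, 647 to 803 in wild type) or Glul (337 to 378 and 263 to 301), and they overlap for the other 8 genes.

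Upstream sequence is shown for a pair of members, Slc1a2, which had the largest positive difference, and Axin2, the feedback gene often read as a Wnt reporter. RefSeq promoter sequence (build GRCm38.p6, 5′ to 3′ on the gene's strand) matched 5 of the 10 members, Glul, Oat, Slc1a2, Axin2 and Nkd1. The 250 bases before each start were searched on both strands for CTTTGAT, a core of the TCF/LEF motif; those before Glul were searched too, and are not shown because annotated exons cover them. It was in 1 of the 5, Slc1a2, on the reverse strand with its first base 207 bases before the start (capitals below). It was held by 3.21% of the 32851 promoters given by RefSeq. The starts used for Slc1a2 and Axin2 lie inside the annotated span of the gene. The Slc1a2 stretch is chr2:102706188-102706355, ending where an annotated exon begins, and the Axin2 stretch is chr11:108920099-108920348, both on the plus strand. No match says only that these letters were not in the window.
Slc1a2: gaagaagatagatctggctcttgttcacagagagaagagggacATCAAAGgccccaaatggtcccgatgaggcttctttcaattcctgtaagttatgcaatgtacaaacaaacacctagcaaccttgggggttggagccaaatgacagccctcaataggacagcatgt
Axin2: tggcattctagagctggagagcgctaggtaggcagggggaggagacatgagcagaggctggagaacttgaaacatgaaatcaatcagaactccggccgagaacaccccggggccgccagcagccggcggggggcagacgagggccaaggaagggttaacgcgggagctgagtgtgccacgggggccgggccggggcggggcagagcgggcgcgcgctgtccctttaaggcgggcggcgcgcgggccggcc

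Members that handle nitrogen are Glul, Slc1a2, Rhbg and Oat. Glul (gene 14645, chromosome 1, 153899929 to 153909723, plus strand, GRCm38) encodes glutamine synthetase, which joins ammonia to glutamate. It stood at 337.24, 377.78 and 372.28 FPKM in knockout replicates 1, 2 and 3 and at 262.89, 301.02 and 300.88 in the wild type. Every knockout library was above every wild type library. Groups without overlap, in either direction, were found for 2 of the 8 tested members, Glul and Rgn, and for 15.4% of all tested genes. The means were 362 ± 22.0 and 288 ± 22.0 FPKM (SD, n = 3), a ratio of 1.26, and the log2 difference was 0.33 (95% interval 0.066 to 0.60; limma, adjusted p = 0.361). Without replicate 1 of both genotypes it was 0.32 (limma, adjusted p = 0.00935), and over the 14 alternatives it lay between 0.27 and 0.38 with adjusted p-values from 0.00935 to 0.866. Of the 31-base words in Glul transcripts, 19.7% also occur in transcripts of other genes, chiefly the pseudogene Glns-ps1, so some fragments may have been divided.

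Slc1a2 (gene 20511, chromosome 2, 102658239 to 102790784, plus strand) encodes the glutamate transporter GLT-1, which brings glutamate into the same cells. It stood at 16.81, 29.51 and 26.50 FPKM in the knockout and at 15.03, 16.77 and 17.33 in the wild type. Knockout replicates 2 and 3 were above all wild type libraries, and knockout replicate 1 lay among them. The log2 difference was 0.51 (95% interval 0.076 to 0.94; limma, adjusted p = 0.399). It rose without knockout replicate 1 (0.74; limma, adjusted p = 0.0254), a fit in which 1 of the 8 members and 2.12% of all tested genes were called, 1.24% rising. It also rose without replicate 1 of both genotypes (0.68; limma, adjusted p = 0.00329), in a range of 0.00329 to 0.883 over the alternatives.

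Rhbg (gene 58176, chromosome 3, 88242874 to 88254739, minus strand) encodes an ammonium transporter of the cell membrane. It stood at 4.56, 3.98 and 4.81 FPKM in the knockout and at 4.26, 2.32 and 3.42 in the wild type, and the groups overlapped through wild type replicate 1. The log2 difference was 0.35 (95% interval -0.063 to 0.77; limma, adjusted p = 0.589). GENCODE places a further gene, Gm38392, over Rhbg on the same strand, and 60.8% of the 31-base words of Rhbg occur in it. Reads of the pair cannot be separated in a table by gene.

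Oat (gene 18242, chromosome 7, 132557475 to 132576398, minus strand) encodes ornithine aminotransferase, the mitochondrial enzyme that links ornithine to glutamate. Its values were 209.39, 222.85 and 189.77 FPKM in the knockout and 241.56, 171.27 and 198.16 in the wild type. The knockout libraries all lay inside the wild type range. The log2 difference was 0.037 (95% interval -0.29 to 0.36; limma, adjusted p = 0.975), and its sign turned without knockout replicate 2 or wild type replicate 2. Glul, Slc1a2 and Rhbg therefore had positive differences of 0.33 to 0.51, and Oat, in the same nitrogen pathway, had one near 0.

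The remaining metabolic members are Rgn and Lhpp. Rgn (gene 19733, chromosome X, 20549766 to 20562089, plus strand) encodes regucalcin, a calcium-binding protein with gluconolactonase activity that takes part in vitamin C synthesis in mice. It stood at 588.93, 509.74 and 506.01 FPKM in the knockout and at 803.18, 646.71 and 703.18 in the wild type. Every knockout library was below every wild type library. The means were 535 ± 46.8 and 718 ± 79.2 FPKM (SD, n = 3), a ratio of 0.745, and the log2 difference was -0.42 (95% interval -0.72 to -0.13; limma, adjusted p = 0.272). Without replicate 1 of both genotypes it was -0.41 (limma, adjusted p = 0.00403), and over the alternatives it lay between -0.49 and -0.34 with adjusted p-values from 0.00403 to 0.81. None of the 31-base words of Rgn was found in another gene, and no annotated gene overlaps it.

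Lhpp (gene 76429, chromosome 7, 132610615 to 132706420, plus strand) encodes a histidine and pyrophosphate phosphatase. Its values were 16.18, 15.78 and 16.43 FPKM in the knockout and 25.17, 12.74 and 13.05 in the wild type. Wild type replicate 1 was far above the other 5 libraries, and wild type replicates 2 and 3 were below all of the knockout. The log2 difference was -0.0026 with all libraries (95% interval -0.51 to 0.50; limma, adjusted p = 0.998). It was 0.30 without wild type replicate 1 (limma, adjusted p = 0.284) and 0.30 without replicate 1 of both genotypes (limma, adjusted p = 0.0946), in a range of 0.0946 to 1 over the alternatives. Lhpp has no direction that holds across the settings. Its coefficient of variation was 41.7% in the wild type and 2.03% in the knockout.

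**Figure D2:**
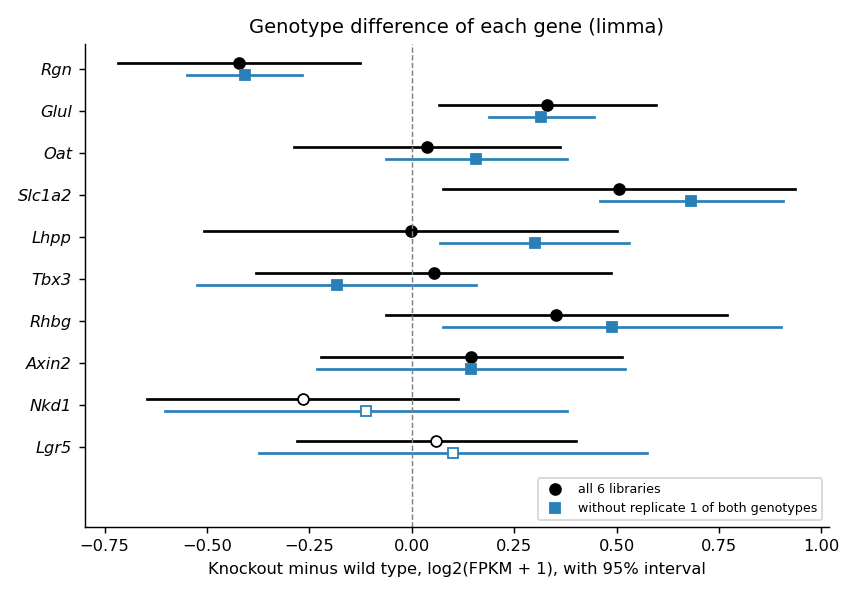
Knockout minus wild type difference in log2(FPKM + 1) for each gene with its 95% interval from limma, with all 6 libraries (black circles) and without replicate 1 of both genotypes (blue squares); open symbols are genes under the filter on low values, read from the fit without it. With all libraries the intervals of Glul (0.066 to 0.60), Slc1a2 (0.076 to 0.94) and Rgn (-0.72 to -0.13) exclude 0, and none of these genes passes after adjustment over all tested genes.

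The transcription factor gene among the members is Tbx3 (gene 21386, chromosome 5, 119670534 to 119684724, plus strand), whose product takes part in liver development. It stood at 4.43, 3.65 and 4.59 FPKM in the knockout and at 2.77, 4.73 and 4.85 in the wild type. Wild type replicate 1 was the lowest library and wild type replicates 2 and 3 the highest. The log2 difference was 0.053 (95% interval -0.38 to 0.49; limma, adjusted p = 0.973), and it was -0.15 without wild type replicate 1 (limma, adjusted p = 0.657, in a range of 0.435 to 0.999 over the alternatives).

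The feedback members of the Wnt pathway were near or below 1 to 2 FPKM. Axin2 (gene 12006, chromosome 11, 108917828 to 108950783, plus strand) encodes a scaffold of the complex that destroys β-catenin. It stood at 1.26, 1.56 and 1.82 FPKM in the knockout and at 1.04, 1.58 and 1.29 in the wild type, with overlapping groups. The log2 difference was 0.15 (95% interval -0.22 to 0.51; limma, adjusted p = 0.861).

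Nkd1 (gene 93960, chromosome 8, 88521342 to 88594887, plus strand) encodes a Dishevelled-binding inhibitor of the pathway. Its values were 0.41, 0.89 and 0.69 FPKM in the knockout and 1.10, 1.25 and 0.66 in the wild type. The groups overlapped through wild type replicate 3. It missed the filter on low values, and without the filter the log2 difference was -0.27 (95% interval -0.65 to 0.11; limma, adjusted p = 0.726).

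Lgr5 (gene 14160, chromosome 10, 115450314 to 115587780, minus strand) encodes an R-spondin receptor that raises Wnt signalling. It stood at 0.43, 0.52 and 0.95 FPKM in the knockout and at 0.45, 0.45 and 0.78 in the wild type. Replicate 3 was the highest library in both genotypes. Lgr5 also missed the filter, and without it the log2 difference was 0.060 (95% interval -0.28 to 0.40; limma, adjusted p = 0.941). Fragment numbers were estimated from steps in the low FPKM values, which put the depth at 8210000 to 10700000 fragments per library. These came to about 17 to 37 fragments per library for Lgr5, 18 to 45 for Nkd1 and 36 to 65 for Axin2, against 6000 to 10000 for Glul.

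On the FPKM scale, which allows levels of different genes to be compared, the members spanned a wide range. Rgn ranked 83 to 124 among the 15960 genes across the 6 libraries, Glul 165 to 283 and Oat 309 to 368, while Lgr5 ranked 9941 to 11231. In the knockout the order from high to low was Rgn, Glul, Oat, Slc1a2, Lhpp, Rhbg, Tbx3, Axin2, Nkd1 and Lgr5. The wild type had the same order except that Lhpp stood before Slc1a2 and Tbx3 before Rhbg. Neighbours whose libraries overlapped were Rhbg with Tbx3 and Nkd1 with Lgr5 in both genotypes, and in the wild type also Lhpp with Slc1a2 and Axin2 with Nkd1. The exchanged neighbours were therefore not separated in the wild type, and Slc1a2 (lowest knockout library 16.81 FPKM) and Lhpp (highest 16.43) were only just separated in the knockout.

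The members did not move as one block across the libraries. Knockout replicate 1 was the lowest of its genotype for 5 of 10 genes. Wild type replicate 1 was the lowest of its genotype for 4 and tied with replicate 2 for Lgr5. Wild type replicate 1 was the highest of all 6 libraries for Oat, Rgn and Lhpp and the lowest for Glul, Slc1a2, Axin2 and Tbx3. The median deviation of the 10 genes from their mean over libraries was -0.033, 0.055 and 0.17 in knockout replicates 1, 2 and 3, and -7.6e-05, -0.11 and -0.088 in the wild type. Summed over the 10 genes, the level was 1124 to 1180 FPKM in the knockout and 1159 to 1357 in the wild type, most of it from Rgn and Glul.

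**Figure D3:**
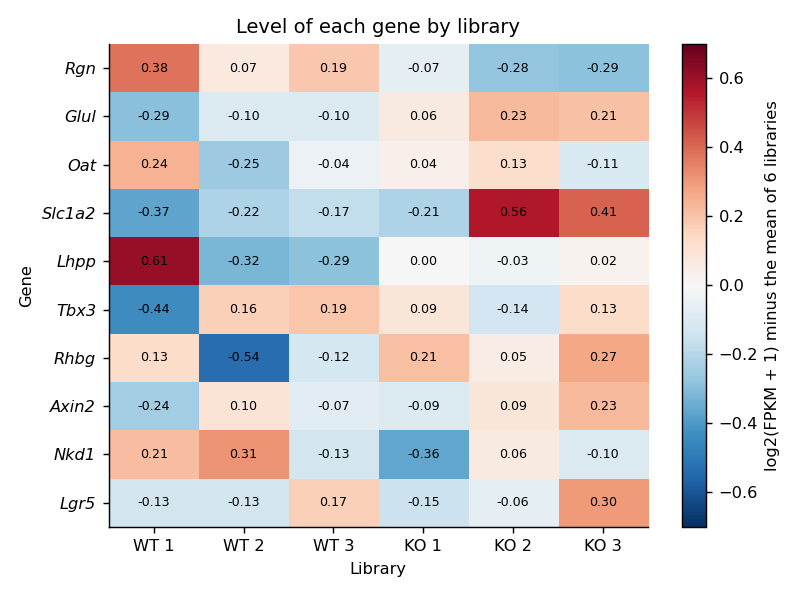
Each cell is log2(FPKM + 1) of a gene in a library minus that gene's mean over the 6 libraries, with genes ordered by mean FPKM, wild type (WT) libraries on the left and knockout (KO) on the right. The Rgn and Glul rows split by genotype in opposite directions, and wild type replicate 1 holds both the highest value, 0.61 for Lhpp, and the value -0.44 for Tbx3.

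The ligands that start the pathway were low in whole liver. Rspo3, an R-spondin of central vein endothelium, measured 1.80 ± 0.16 FPKM in the knockout and 2.05 ± 0.21 in the wild type (SD, n = 3; log2 difference -0.12; limma, adjusted p = 0.875). The endothelial ligands Wnt2 and Wnt9b, named outside the rule for named genes after their values were seen, were at 0.51 to 1.14 and 0.07 to 0.24 FPKM over the 6 libraries, with overlapping groups. Of 25 listed ligands, R-spondins and secretion factors 14 were in the table and 3 could be tested, and none passed. The 3 were Rspo3, Wnt5b (6.31 ± 1.04 and 5.46 ± 0.61 FPKM) and Wls, the carrier that brings Wnt proteins to the cell surface (1.32 ± 0.12 and 1.92 ± 0.47, with every knockout library below the wild type). The acyltransferase gene Porcn, which was not tested, stood at 1.17 ± 0.25 and 0.62 ± 0.40 FPKM. The 6 central vein endothelium markers summed to 4.66 to 5.91 FPKM in the knockout and 4.54 to 5.83 in the wild type, and none of them was at 0 in any library. Lhx6, one of these markers, was at 0.95 ± 0.21 and 0.93 ± 0.54 FPKM.

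Receptors and their turnover genes gave no call either. All 8 tested of 16 listed had positive differences, from 0.084 to 0.18 with a median of 0.11, and none passed. Of all 9968 tested genes 4401 had positive and 5567 negative differences, which stands beside the counts by sign of the later lists too. The most abundant were Lgr4, the R-spondin receptor of most hepatocytes (10.02 ± 1.92 FPKM in knockout and 9.39 ± 1.83 in wild type), the co-receptors Lrp5 (7.41 ± 0.65 and 6.48 ± 1.39) and Lrp6 (7.15 ± 1.73 and 6.39 ± 1.73), and the receptor Fzd4 (5.04 ± 1.92 and 4.52 ± 1.51). Replicate 1 was the lowest library of its genotype for Lgr4, Lrp6 and Fzd4 in both genotypes.

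Among genes of β-catenin destruction and transcription none of 19 tested passed, with 10 positive and 9 negative differences. Ctnnb1, which encodes β-catenin, stood at 43.42, 50.29 and 46.75 FPKM in the knockout and at 46.73, 59.46 and 60.49 in the wild type (log2 difference -0.24; limma, adjusted p = 0.629). Without replicate 1 of both genotypes it fell by 0.30 (limma, adjusted p = 0.0418), the single gene of this list called there. The kinase gene Csnk1d was at 14.5 ± 1.64 FPKM in the knockout and 11.1 ± 0.94 in the wild type without overlap (limma, adjusted p = 0.402), Csnk1a1 at 23.2 ± 2.0 and 24.6 ± 3.47, and Gsk3a at 15.9 ± 2.56 and 14.2 ± 0.63.

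Secreted and feedback inhibitors of Wnt signalling numbered 3 tested of 17 listed, and none passed. Notum, a hepatocyte enzyme that strips the lipid from Wnt proteins, stood at 8.82, 12.92 and 18.35 FPKM in the knockout and at 14.73, 14.10 and 12.15 in the wild type, so that the knockout libraries lay on both sides of the wild type. Dkk4, an inhibitor of LRP co-receptors, stood at 0.74, 3.63 and 2.52 FPKM in the knockout and at 1.14, 1.23 and 1.20 in the wild type. It passed without knockout replicate 1 (log2 difference 0.88; limma, adjusted p = 0.0453) and without replicate 1 of both genotypes (0.87; limma, adjusted p = 0.0179), and not with all libraries (0.48; limma, adjusted p = 0.674). Kremen1, a receptor for DKK proteins, was at 1.82 ± 0.44 and 2.07 ± 0.47 FPKM, and Wif1, a secreted Wnt binder that was not tested, at 0.82 ± 0.15 and 0.67 ± 0.085.

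Beside the 10 members, 29 other genes known from pericentral hepatocytes were all tested, and none passed (14 positive, 15 negative, median -0.017). Their most abundant genes were Ces3a, a carboxylesterase gene (853 ± 123 FPKM in knockout and 945 ± 40.5 in wild type), Rnase4, a secreted ribonuclease gene (683 ± 109 and 843 ± 34.9), Aldh1a1, which encodes a retinaldehyde dehydrogenase (718 ± 89.0 and 729 ± 112), and Car3, a carbonic anhydrase gene (698 ± 65.9 and 814 ± 198). Differences in the list ran from -1.06 to 0.69. At an unadjusted p under 0.05 (limma) there were 12 of the 29, beside 9.93% of all tested genes. Every knockout library was above the wild type for 8 of the 29 and below it for 4. Groups without overlap, in either direction, were found for 15.4% of all tested genes. Without replicate 1 of both genotypes 9 of the 29 rose and 7 fell (limma), where 6.92% of all tested genes rose and 4.95% fell.

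Periportal hepatocyte genes, which Wnt signalling holds down near the central vein, gave 1 rise among 24 tested. This was Etnppl, a phospholyase gene of phosphoethanolamine, at 44.7 ± 0.88 FPKM in the knockout and 12.3 ± 0.87 in the wild type (log2 difference 1.78, SE 0.12; limma, adjusted p = 5.65e-05). The list had 18 positive and 6 negative differences and a median of 0.23. Its most abundant genes were the urea cycle genes Ass1 (1700.4 ± 91.5 and 1386 ± 128 FPKM), Arg1 (853 ± 29.1 and 776 ± 84.3) and Cps1 (677 ± 49.7 and 463 ± 85.9), and Fbp1, a gluconeogenic enzyme gene (665 ± 110 and 609 ± 49.2). Gls2, the liver glutaminase gene, whose enzyme breaks glutamine down, ranged from 55.7 to 76.7 FPKM in the knockout and 69.3 to 80.5 in the wild type. Its groups overlapped. Gls2 is named outside the rule for named genes, after its values were seen. Without replicate 1 of both genotypes 12 of the 24 periportal genes rose and none fell (limma), beside 6.92% and 4.95% of all tested genes.

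Midzonal genes numbered 5, of which Cyp8b1, the sterol 12-alpha-hydroxylase gene, rose from 149 ± 32.3 to 291 ± 45.5 FPKM (log2 difference 0.97, SE 0.17; limma, adjusted p = 0.0388). That call was lost when replicate 2 of the knockout (limma, adjusted p = 0.111) or its replicate 3 (0.111) was left out, or the same numbers of the wild type (0.179 and 0.173), and without the filter on low values (0.145), in a range from 0.000201 to 0.179 over the alternatives. Over the same alternatives the log2 difference was 0.83 to 1.13. The other midzonal genes did not pass with all 6 libraries. Hamp, the hepcidin gene, stood at 933 ± 292 and 1322 ± 552 FPKM, Igfbp2 at 371 ± 131 and 209 ± 26.7, and Mup3 at 6562 ± 521 and 8192 ± 766. Without replicate 1 of both genotypes 2 of the 5 rose and 1 fell (limma), beside 6.92% and 4.95% of all tested genes. Those that rose were Cyp8b1 and Igfbp2 (1.17, limma, adjusted p = 0.000186). Hamp2, named outside the rule for named genes, fell (-0.56, limma, adjusted p = 0.00653). Igfbp2 also rose without knockout replicate 1 (1.09, limma, adjusted p = 0.00465).

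Other genes of glutamine, glutamate and ammonia handling gave no call among 16 tested, with 12 positive differences and a median of 0.12. Slc38a3, the gene of the glutamine transporter SNAT3, was at 432 ± 68.9 FPKM in the knockout and 481 ± 30.9 in the wild type. Slc38a4, an amino acid transporter gene, was at 287 ± 13.9 and 253 ± 19.2. The glutamate dehydrogenase gene Glud1 was at 232 ± 3.42 and 219.5 ± 11.2 FPKM, and the aspartate aminotransferase gene Got2 at 235 ± 18.0 and 227 ± 17.8. Without replicate 1 of both genotypes 7 of the 16 rose and none fell (limma), again beside 6.92% and 4.95% of all tested genes.

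**Figure D4:**
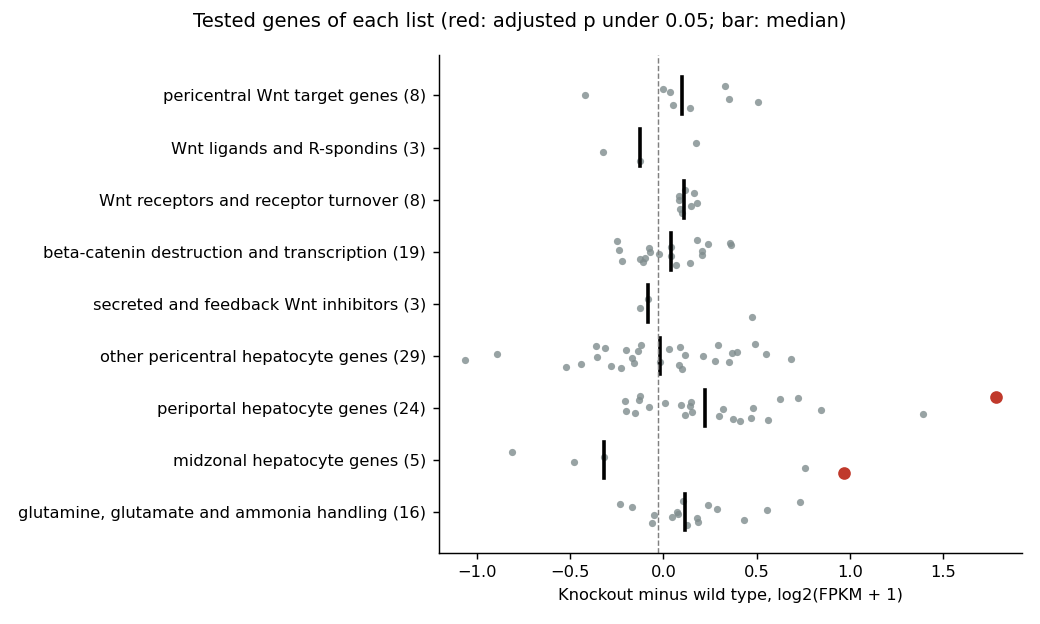
Knockout minus wild type difference in log2(FPKM + 1) for the tested genes of each list (number tested in brackets), with the list median as a black bar, genes past the threshold in red and the median of all tested genes as a dashed line. Only Etnppl (1.78) and Cyp8b1 (0.97) are red, and the 8 tested pericentral Wnt target genes lie between -0.42 and 0.51.

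Markers of other liver cells were read in the same libraries. The 11 macrophage markers summed to 132 to 231 FPKM in the knockout and 218 to 238 in the wild type, with Clec4f at 29.9 ± 7.85 and 45.1 ± 1.98 and Cd5l at 32.1 ± 12.1 and 46.3 ± 3.87. Of the 11, 10 had negative differences (median -0.40) and none passed with all libraries. Without replicate 1 of both genotypes 8 of the 11 fell and none rose (limma, median -0.56). In that fit, which also called Glul, Slc1a2 and Rgn, 4.95% of all tested genes fell and 6.92% rose. Of the 8 sinusoidal endothelium markers 7 had negative differences (median -0.34), Clec4g being the exception, and none passed. In the fit without replicate 1 of both genotypes, 1 of these 8 fell, Lyve1, beside 4.95% of all tested genes (limma). The 7 cholangiocyte markers summed to 22.1 to 25.9 FPKM in the knockout and 27.8 to 35.9 in the wild type without overlap, with Spp1 at 18.3 ± 1.35 and 27.0 ± 4.44. In the fit without replicate 1 of both genotypes Spp1 fell (-0.46, limma, adjusted p = 0.0182), 1 of 2 tested cholangiocyte markers. The stellate cell marker Ecm1 rose there (0.72, limma, adjusted p = 0.00196), 1 of 8 tested. Summed levels overlapped for sinusoidal endothelium (82.1 to 115 and 92.1 to 111 FPKM; Clec4g at 35.8 ± 8.07 and 28.4 ± 2.06, Fcgr2b at 22.3 ± 7.43 and 28.9 ± 2.08) and for stellate cells (129 to 153 and 132 to 170; Dcn at 63.0 ± 1.04 and 73.8 ± 8.69, Ecm1 at 47.2 ± 7.13 and 37.5 ± 12.0).

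The blood cell lists set replicate 1 apart in both genotypes. Lymphocyte and neutrophil markers summed to 18.5 FPKM in replicate 1 of the knockout and 22.1 in that of the wild type. The other 4 libraries had 5.51 to 7.28. Most of the sums in replicate 1 came from S100a8 (8.75 FPKM in the knockout and 10.21 in the wild type) and S100a9 (7.19 and 10.17). The lymphocyte markers of the list reached no more than 1.26 FPKM in any library. S100a8 was at 4.29 ± 4.07 FPKM in the knockout and 4.74 ± 4.78 in the wild type. S100a9 was at 4.37 ± 2.45 and 5.06 ± 4.44. Red blood cell markers summed to 393 and 536 FPKM in replicate 1 and to 196 to 303 in the others, with Hba-a1 at 171 ± 55.6 and 176 ± 108 and Hba-a2 at 116 ± 41.8 and 129 ± 56.0. In that list Alas2, the erythroid enzyme of heme synthesis, fell from 47.9 ± 3.30 to 9.43 ± 0.86 FPKM (log2 difference -2.23; limma, adjusted p = 2.02e-05). The part of these cells in the values of the 10 genes was not tested. Hepatocyte markers summed to 46424 to 54501 FPKM in the knockout and 43274 to 50276 in the wild type, with Alb at 30269 ± 3205 and 26283 ± 2215 and Apoa1 at 7468 ± 768 and 6260 ± 959. Without replicate 1 of both genotypes 3 of the 9 hepatocyte markers rose and none fell (limma). Apoa1 was among the 3 (0.30, limma, adjusted p = 0.00975). Of all tested genes, 6.92% rose and 4.95% fell in that fit.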

How the data were processed

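Total RNA of whole liver was sequenced in 6 libraries, and the labels put 3 in each genotype. Per the submitters' processing notes the tools named are HISAT and the build mm10; the sources used here do not name the program or annotation behind the expression values. The authors deposited FPKM values per gene with 2 decimals, as the file headers name them. FPKM is not a count, so limma 3.58.1 in R 4.3.3 (lmFit, eBayes with trend) was run on log2(FPKM + 1) for the 9968 genes that reached 1 FPKM in 3 or more libraries; members under that filter were read from the fit of all 15960 genes. Intervals are 95% intervals of limma. The labels do not say how the samples were taken, so p-values measure the spread between these libraries, which may be technical. The members and gene lists were chosen with earlier results of these data known, so the lists support nothing independently. Named genes are all members, and from each other list every gene past the threshold and the 4 genes of highest mean FPKM (2 for cell markers); 1 marker gene is not reported here.

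Gene positions came from RefSeq on GRCm38, the assembly that mm10 names, with 15915 of 15960 genes matched by identifier; strands, overlaps and shared 31-base words came from GENCODE M21. The sources used here do not say whether counting used strand. Reads of opposite-strand genes, which overlap Glul, Slc1a2, Axin2, Tbx3, Lhpp and Lgr5, therefore cannot be told apart from theirs. Genes on the same strand overlap Oat (Fgfr2), Nkd1 (Gm45496), Glul (Mir8114) and Rhbg (Gm38392). Depth was estimated from steps in low values of short genes: 66.3% to 73.0% of 199 to 231 values per library were no more than 0.15 steps from a whole number, too few for a count test. Chance gives 30% for a depth fixed beforehand. The depth was chosen as the best fit to these same values, so chance would give more than 30% here, by an amount not computed. Replicate numbers come from the titles. Same-numbered libraries had correlated deviations from their group means (0.30, 0.198 and 0.157 for replicates 1, 2 and 3), all above 0.1, and knockout replicate 3 with wild type replicate 2 had 0.212. Deviations within a genotype cancel out by construction, so these values depend on each other and are not separate signs of pairing. A fit with the replicate as a block was an alternative. The tests were checked on simulated data with planted changes larger than the difference of any member. That check therefore does not bear on differences as small as those of the members.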

Additional observations from a re-analysis of the deposited data

How the results depend on the processing

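The count of called genes with all libraries was 76, and 0 members were called. The fits below had no more than 6 libraries, and the cause of the changes was not tested. Without the filter on low values 32 genes were called, with sample quality weights 1151 and with replicate 1 of both genotypes left out 1183; leaving out 1 library at a time gave 29 to 211. Members called were 3 with sample quality weights and 3 with replicate 1 of both genotypes left out (Glul, Slc1a2 and Rgn each time), and 0 to 1 with 1 library left out. Of all tested genes, 11.5% were called with the weights and 11.9% with replicate 1 of both genotypes left out (limma). The median log2 difference of the 10 members, 0.057, was 0.15 with the weights and 0.15 with replicate 1 of both genotypes left out, and 0.036 to 0.15 with 1 library left out. With the replicate as a block 72 genes and 0 members were called, so pairing changed no call of a member. Of 140 recomputed member values 119 kept their sign and their side of the threshold, 7 came past it and 14 changed sign. None of those that changed sign passed. Leaving out 1 library at a time took Oat from -0.080 to 0.17, Lgr5 from -0.075 to 0.16, Tbx3 from -0.15 to 0.16 and Lhpp from -0.16 to 0.30. Tbx3 was -0.18 with the weights and -0.18 with replicate 1 of both genotypes left out. Lhpp was 0.00075 at a pseudocount of 0.1, 0.00022 with libraries scaled to a common sum, 0.045 with upper-quartile scaling, 0.051 with quantile normalization, 0.22 with the weights and 0.30 with replicate 1 of both genotypes left out. The fewest fragments stood behind Lgr5, Nkd1 and Axin2.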
